A study of Sus scrofa with 48 samples.

Results

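Solute carriers (SLC) are membrane proteins that move sugars, amino acids, lipids, metals, ions and metabolites across the plasma membrane and the membranes of organelles. In white adipose tissue they bring in the glucose from which fatty acids are made, carry citrate and phosphate across the mitochondrial membrane, and let lactate and amino acids leave or enter the cell. The insulin-responsive glucose transporter GLUT4, product of SLC2A4, is the best known of them in this tissue.

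The SLC genes were described in perirenal adipose tissue (PRAT) of 48 pigs aged 132 days, measured on 1-colour porcine arrays with 1 pig per array. The pigs were Large White barrows of lines selected in opposite directions for residual feed intake (RFI), the difference between observed and predicted feed intake: low RFI pigs (labelled RFIneg, the efficient line) and high RFI pigs (RFIpl). Each line was fed ad libitum on a diet rich in fat and fiber (HF) or on a diet low in both and rich in starch (LF), with 12 pigs in each of the 4 groups HF_RFIneg, HF_RFIpl, LF_RFIneg and LF_RFIpl. The diets were formulated at equal energy and protein contents, so that HF and LF differ in fat, fiber and starch together. The paper reports that HF pigs ate less, were lighter at the end and had a lower proportion of perirenal fat. Effects of diet composition, intake, body weight and fat mass cannot be told apart here. A gene was a member when its name on the array began with SLC and a digit and at least 1 of its probes was well above background on 24 or more arrays. Of 221 such genes (400 probes), 168 genes (304 probes) met this rule, among 43355 probes of the array that did. The 53 other genes were not tested. SLC6A9 and SLC16A6, well above background on 26 arrays, lay just inside the rule, and SLC17A4 and SLC35B4, with 23 arrays, just outside. Each gene was read from its brightest passing probe, and its level is the log2 signal minus the median log2 signal of the array, a scale on which probes of different genes are not comparable. No member spot was saturated, 143 members exceeded background clearly on all 48 arrays, and the number of arrays limits the precision.

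The 6 slides each carried 2 arrays of every group and were scanned on 2 days, so that neither slide nor scan day was tied to diet or line. The median signal of an array lay between 115 and 178 and its median background between 23 and 33. All 7 adipocyte markers (ADIPOQ, PLIN1, FABP4, LIPE, PPARG, CIDEC and LPL) were measured. With HF, 2 of the 7 were called lower, PPARG by 0.19 and CIDEC by 0.24 on the log2 scale. The others were not called, and only ADIPOQ had a difference above 0 (0.08). The paper reports the opposite direction for PPARG by qPCR, higher with HF in this tissue. On the arrays, 4 of 6 macrophage markers were called higher with HF (CD163, MRC1, TYROBP and AIF1). Of all probes tested, 14.5% were called lower with HF and 8.54% higher. The mean level of the 6 macrophage markers ran from 1.97 to 3.59 (median 2.62) in LF pigs and from 2.04 to 3.86 (median 3.04) in HF pigs. Of 5 genes listed for brown fat 2 were measured: CIDEA was called lower with HF, and PPARGC1A (-0.11) was not called. Whether CIDEA reads brown fat in this tissue was not tested. The only kidney marker measured, AQP2, was lower, and of 5 T and NK cell markers NKG7 was higher. In whole tissue, fewer cells of a type and less RNA per cell cannot be told apart. The arrays of LF_RFIpl pigs 3 and 11 and LF_RFIneg pig 11 correlated least with the others (mean correlation 0.977 to 0.979, against a median of 0.986).

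The first question was whether replacing starch by fat and fiber changed SLC expression. Diet changed 37 of the 168 SLC genes (limma, raw p under 0.01, fold over 1.1 and adjusted p under 0.08): 30 were lower and 7 higher in HF pigs. Over all probes tested, 23.0% were called, 14.5% lower and 8.54% higher, so that the SLC genes were called about as often as the array as a whole (22.0%). The median difference of the 168 genes was -0.05, against -0.02 for all probes. All 37 kept their sign within both scan days, and 29 kept it on all 6 slides. The split depended on the scaling: with 75th percentile centring it was 26 lower and 11 higher, and with centring on spike-in controls, which moved the median of all probes to 0.08, it was 12 lower and 24 higher. Every difference below is relative to the array median.

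**Figure D1:**
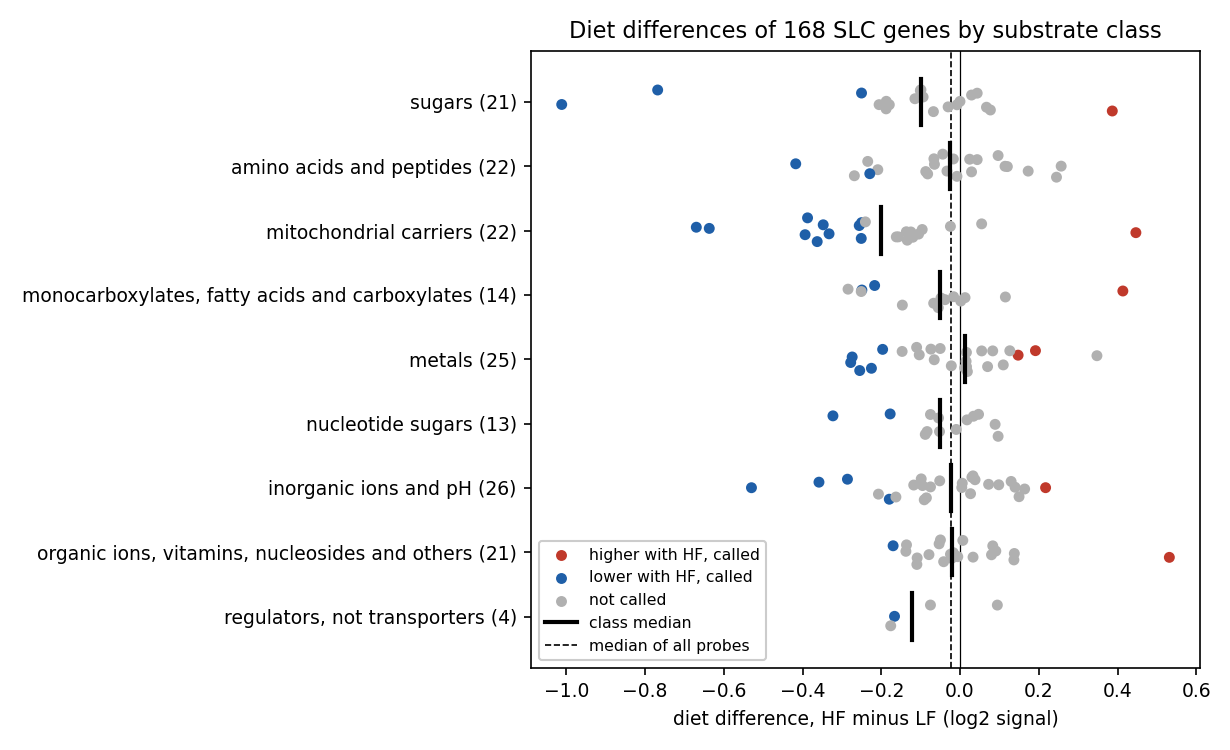
Diet difference (HF minus LF, log2 signal) of the 168 SLC genes in rows of substrate class, with the number of genes in parentheses; blue and red points passed the test, grey points did not, thick bars are class medians and the dashed line is the median of all probes. The mitochondrial carriers lie furthest to the left as a class (median -0.20), and SLC2A5 and SLC2A4 are the lowest points.

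The plot of differences by class separates the genes by what they carry. Among the mitochondrial carriers, 10 of 22 genes were lower and 1 higher. The sugar transporters had 3 of 21 lower and 1 higher, the metal transporters 5 of 25 lower and 2 higher, and the transporters of inorganic ions and protons 4 of 26 lower and 1 higher. Of the 22 amino acid and peptide transporters 2 were lower, of the 13 nucleotide sugar transporters 2 were lower, and of the 14 carriers of monocarboxylates, fatty acids and other carboxylates 2 were lower and 1 higher. Of the 21 transporters of organic ions, vitamins and nucleosides, 1 was lower and 1 higher. No test compared the classes with each other.

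The facilitative sugar transporters of the SLC2 family included the strongest response. SLC2A5, the fructose transporter GLUT5, had levels from -0.98 to 1.33 (median 0.18) in LF pigs and from -1.54 to 0.35 (median -0.88) in HF pigs. The groups overlapped, yet 23 of 24 HF pigs were below the LF mean and 8 were below every LF pig. The difference was -1.01 ± 0.14 (SE), a 2.02-fold lower signal (limma, adjusted p = 7.4e-07), with -1.16 within the low RFI line and -0.86 within the high RFI line. It was the only SLC gene to change by more than 2-fold. Its signal was close to background, and with background subtraction by the scanner software the difference was -1.47.

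SLC2A4 (GLUT4) ranged from 5.80 to 8.05 (median 7.42) in LF pigs and from 5.20 to 7.67 (median 6.41) in HF pigs, 22 of which were below the LF mean. The difference was -0.77 ± 0.18 (adjusted p = 0.00108), or 1.70-fold. Its 3 distinct passing sequences gave -0.77, -0.40 and -0.30, the last of which did not pass the test, so that the direction was shared and the size depended on the probe. SLC2A8, an intracellular glucose transporter, was lower by a smaller step (-0.25 ± 0.06, adjusted p = 0.00103). SLC2A3 (GLUT3), a high-affinity glucose transporter of neurons and leukocytes, went the opposite way. It ranged from -0.70 to 0.33 (median -0.18) in LF pigs and from -0.51 to 0.93 (median 0.11) in HF pigs, with 8 HF pigs above every LF pig (difference 0.39 ± 0.10, adjusted p = 0.00234). The 4 raised macrophage markers moved the same way, by 0.36 to 0.70, and their part in the SLC2A3 result was not tested. SLC2A1 (GLUT1), the basal glucose transporter, showed a difference of 0.03 with a 95% interval of -0.15 to 0.21.

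**Figure D2:**
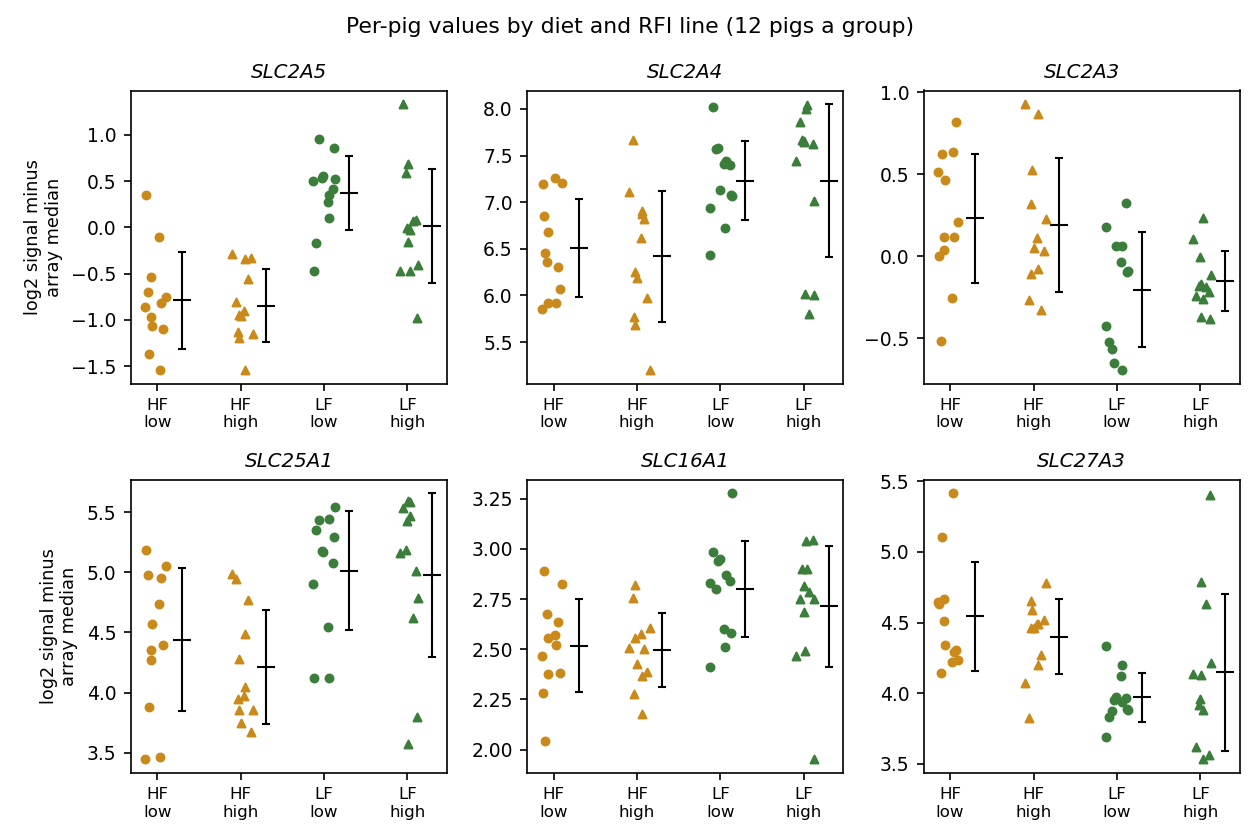
Level of 6 SLC genes (log2 signal minus array median) in every pig, by diet (HF, LF) and RFI line (low, high); points are pigs, and bars are the group mean ± SD of 12 pigs. HF pigs are lower for SLC2A5, SLC2A4, SLC25A1 and SLC16A1 and higher for SLC2A3 and SLC27A3 in both lines, with overlap of the diets in every panel.

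The per-pig values show that the diets overlapped for each of these genes. Related sugar transporters can share sequence, so the SLC2A5 probe and a dimmer SLC2A4 probe are shown as deposited. The SLC2A5 probe and one of the SLC2A4 probes lie on matching stretches of the genes. Aligned without gaps, with the SLC2A4 probe shifted by 3 bases, they are identical at 28 of 57 bases, marked by capitals, and differ at all others:
SLC2A5: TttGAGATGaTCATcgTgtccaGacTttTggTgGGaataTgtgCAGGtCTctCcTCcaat
SLC2A4: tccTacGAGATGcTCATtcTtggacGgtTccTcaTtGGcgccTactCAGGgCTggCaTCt
The SLC2A3 probe, whose signal moved the other way, is in lower case because nothing in it is marked:
SLC2A3: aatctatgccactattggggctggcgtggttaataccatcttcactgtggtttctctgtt
No pair of probes chosen for different SLC genes shared a run of 30 bases. The SLC2A4 probe printed here is the one with a difference of -0.30, and a second probe with the same sequence gave -0.30 as well. The brightest SLC2A4 probe, which gave -0.77, is not printed, so the alignment does not cover it.

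Steps of GLUT4 movement to the cell surface were read from a list of 15 genes, 10 of which were measured. RHOQ (TC10, a small GTPase of insulin signalling to GLUT4) was lower in HF pigs by 0.56 on the log2 scale (adjusted p = 2.61e-06), LNPEP (a resident protein of GLUT4 vesicles) by 0.22 and RAB10 by 0.18. TBC1D1, a Rab GTPase-activating protein, was higher (0.31 ± 0.05, adjusted p = 2.43e-05). The remaining 6 did not pass the test. Of all probes, 14.5% were called lower and 8.54% higher, and no test compared this list with them.

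Most proteins of the SLC25 family sit in the inner mitochondrial membrane (SLC25A17 is found in peroxisomes and SLC25A46 in the outer mitochondrial membrane), and they exchange metabolites, nucleotides and phosphate. Of the 22 genes, 20 had a difference below 0, with a class median of -0.20. SLC25A1, which exports the citrate used for fatty acid synthesis, ranged from 3.57 to 5.59 (median 5.18) in LF and from 3.44 to 5.18 (median 4.31) in HF pigs. The highest HF pig was thus at the LF median, although a few LF pigs were as low as the lowest HF pigs. The difference was -0.67 ± 0.16, or 1.59-fold (adjusted p = 0.00131). Its probe was:
SLC25A1: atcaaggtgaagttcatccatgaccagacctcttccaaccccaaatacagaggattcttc
SLC25A33, a pyrimidine nucleotide carrier, ranged from 4.61 to 6.17 (median 5.56) in LF and from 3.98 to 5.76 (median 4.84) in HF pigs, 10 of which were below every LF pig. It was lower by 0.64 (difference -0.64 ± 0.13, adjusted p = 0.000289).

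Carriers of the energy and reducing-equivalent shuttles were also lower. SLC25A4, an ADP/ATP exchanger, had a difference of -0.39 ± 0.08 (adjusted p = 0.000352), and SLC25A3, the phosphate carrier, -0.25 ± 0.05 (adjusted p = 0.000349). SLC25A13 (aspartate and glutamate) and SLC25A11 (malate and 2-oxoglutarate), both of the malate-aspartate shuttle, had -0.39 and -0.25. SLC25A22 (glutamate) had -0.26, SLC25A26 (S-adenosylmethionine) -0.33, SLC25A39 (glutathione) -0.35 and SLC25A17 (peroxisomal cofactors) -0.36. In each of the 10 genes called lower, between 18 and 23 of the 24 HF pigs were below the LF mean. With spike-in centring 7 of the 10 remained called, and SLC25A3, SLC25A11 and SLC25A22 did not. Lower levels of CIDEA and of 2 of the 7 adipocyte markers, PPARG and CIDEC, moved with these carriers, and their part was not tested. The other adipocyte markers were not called.

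**Figure D3:**
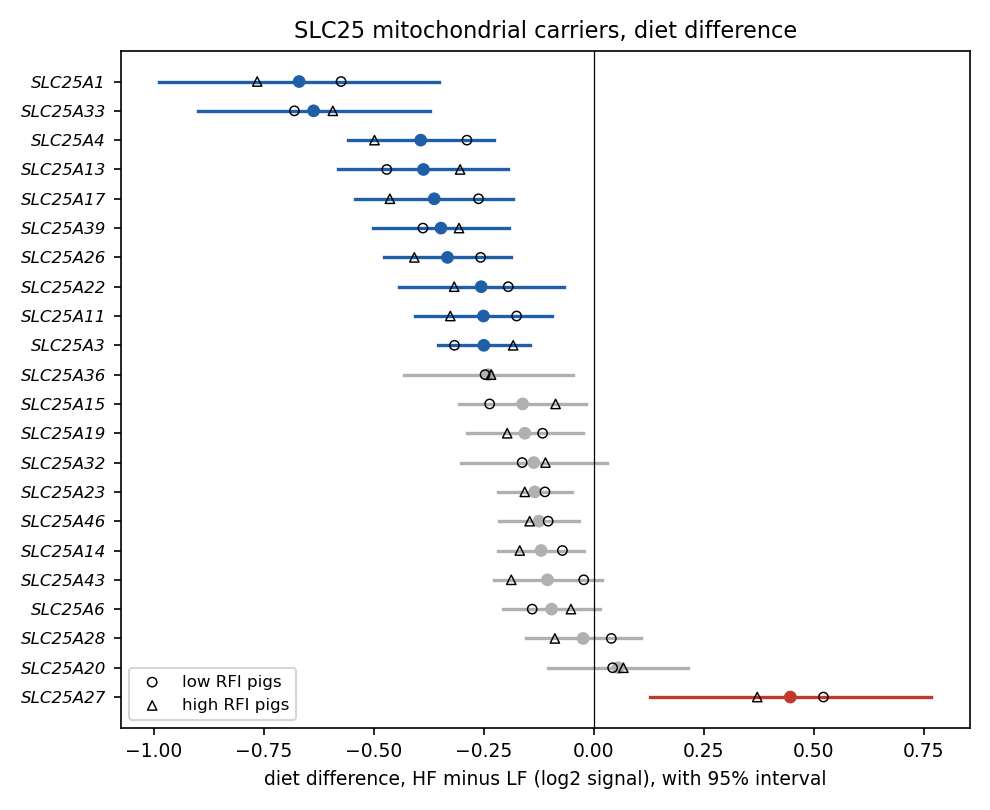
Diet difference (HF minus LF, log2 signal) of the 22 SLC25 genes with 95% intervals; blue and red passed the test, and open circles and triangles give the difference within the low and the high RFI line. The 10 genes at the top are lower in both lines, and SLC25A27 at the bottom is higher in both.

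The chart of SLC25 genes also shows genes that did not pass the test. SLC25A20, which brings acylcarnitines into mitochondria for oxidation, had a difference of 0.05 with an interval of -0.10 to 0.21. SLC25A6, another ADP/ATP exchanger, had -0.10 (interval -0.21 to 0.01), and passed at -0.16 without the 3 least correlated arrays. Among the 22 genes with an SLC25 symbol, only SLC25A27 (UCP4, an uncoupling protein homologue) was called higher with HF, by 0.45 ± 0.16 (adjusted p = 0.0303). It ranged from 1.37 to 3.59 in LF and from 2.06 to 4.45 in HF pigs, and 20 HF pigs were above the LF mean. Without the 3 least correlated arrays the difference was 0.42 and no longer passed.

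Transporters and partners with other symbols were read from a list of 32 genes, 18 of them measured. Only 5 of the 18 were mitochondrial (UCP2, UCP3, BRP44, MTCH1 and MTCH2), and the others included CD36, BSG and transporters of the SLCO and MFSD families. BRP44 (MPC2), a subunit of the mitochondrial pyruvate carrier, was lower in HF pigs (-0.66 ± 0.10, adjusted p = 3.7e-06), from 9.09 ± 0.34 (SD, n = 24) in LF to 8.43 ± 0.38 in HF. UCP2, an uncoupling protein of the same SLC25 family under another symbol, was called higher by 0.45 ± 0.14. Its relative UCP3 had 0.24 and was not called. The outer mitochondrial membrane protein MTCH2 was lower by 0.21 on the log2 scale, the monocarboxylate transporter partner BSG by 0.15 and the organic anion transporter SLCO4A1 by 0.15, and 13 genes did not pass. With 75th percentile centring 1 of these 4 lower calls was left. The share called over all probes was 14.5% lower and 8.54% higher, and no test compared this list with them.

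Monocarboxylates and acyl groups came next. SLC16A1 (MCT1, a lactate and pyruvate transporter) ranged from 1.95 to 3.28 (median 2.81) in LF and from 2.04 to 2.89 (median 2.51) in HF pigs, and was lower with HF by 0.25 (SE 0.07, adjusted p = 0.00571). No HF pig was below every LF pig, because a lone LF pig was the lowest of all. SLC16A3 (MCT4) and SLC16A7 (MCT2), other lactate and pyruvate transporters, had -0.07 (interval -0.16 to 0.02) and 0.00 (interval -0.16 to 0.17). SLC33A1, which moves acetyl-CoA into the endoplasmic reticulum, was lower by 0.22 (SE 0.07, adjusted p = 0.025). Without the 3 least correlated arrays SLC33A1 had -0.19 and did not pass.

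SLC27A3, an acyl-CoA synthetase of the fatty acid transport protein family, was higher. It ranged from 3.53 to 5.41 (median 3.95) in LF and from 3.82 to 5.42 (median 4.47) in HF pigs, with 23 HF pigs above the LF mean (0.41 ± 0.10, adjusted p = 0.00259). SLC27A1 (FATP1), the main family member of adipocytes, had -0.05 (interval -0.14 to 0.04). BSG (basigin) is the partner that takes MCT1 to the membrane. After removal of group means, SLC16A1 and BSG had r = 0.25 (permutation p = 0.0908) and rho = 0.10 (permutation p = 0.485) over 48 pigs, and r = 0.17 without the 2 pigs farthest from the SLC16A1 median. Within scan days r was 0.46 and 0.14. The other pairs planned could not be computed, since SLC7A11 did not pass the filter and SLC7A5 and SLC7A6 were not found under these names.

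Among the amino acid transporters, SLC7A2 (CAT2, for arginine and lysine) ranged from 2.61 to 4.22 (median 3.65) in LF and from 2.41 to 4.09 (median 3.19) in HF pigs, and was lower with HF (-0.42 ± 0.13, adjusted p = 0.0148). SLC38A1, a glutamine transporter, was lower by 0.23 (SE 0.06, adjusted p = 0.00193). Its single probe was dim (mean level -1.04), and with spike-in centring the difference was -0.12 and not called. SLC3A2, the heavy chain shared by several exchangers, had 0.03 (interval -0.20 to 0.26), and SLC1A5 (ASCT2, glutamine) -0.01 (interval -0.11 to 0.09), with the sign of the latter changing with the scaling.

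Metal transporters went in both directions. The zinc transporters SLC30A9 (-0.27 ± 0.05, adjusted p = 0.000102), SLC30A5 (-0.23) and SLC39A4 (-0.20) and the magnesium transporter SLC41A1 (-0.25) were lower with HF. The other probe of SLC41A1 (-0.07) and the dimmest probe of SLC30A5 (-0.08) were not called. For SLC30A9 the LF pigs lay between 2.92 and 3.57 and the HF pigs between 2.54 and 3.24, 10 of them below every LF pig. SLC11A1 (NRAMP1), a metal transporter of macrophage phagosomes, ranged from 3.14 to 3.81 in LF and from 2.73 to 4.09 in HF pigs and was higher with HF (0.19 ± 0.07, adjusted p = 0.0254), in 23 of 24 pigs relative to the LF mean. The macrophage markers moved with it, and their part was not tested. Without the 3 least correlated arrays it had 0.16 and did not pass. The dimmer SLC11A1 probes gave 0.16 as well and were not called. The zinc transporter SLC39A5 was called higher (0.15 ± 0.05, adjusted p = 0.014) from its brightest probe, but its 2 other probes gave -0.24 and -0.14 and did not pass, so that its direction is not settled. SLC39A14 (zinc and iron) had 0.13 and SLC11A2 (DMT1, iron) 0.11, neither of which passed.

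Among transporters of the Golgi, SLC35A3 (UDP-N-acetylglucosamine) was lower with HF, from 1.82 to 2.68 in LF to 1.33 to 2.40 in HF pigs (-0.32 ± 0.07, adjusted p = 0.000648), and SLC35C1 (GDP-fucose) was lower by 0.18 on the log2 scale. Among ion transporters, SLC24A3, a potassium-dependent sodium/calcium exchanger, ranged from 3.18 to 4.74 (median 4.08) in LF and from 2.76 to 4.09 (median 3.61) in HF pigs (-0.53 ± 0.11, adjusted p = 0.000223). Its relative SLC24A2 had -0.29 and the potassium-chloride cotransporter SLC12A7 -0.18, both called. SLC4A1, the anion exchanger known from red cells (band 3), was lower with HF (-0.36 ± 0.07, adjusted p = 0.000116). Its other probe did not pass the filter (mean level -1.65, against 4.61 for the probe used). Of the 4 red cell markers only HBB and AHSP were measured, with differences of 0.08 and 0.17 that did not pass, while SLC4A1 was lower in 22 of 24 HF pigs than the LF mean. SLC24A6 (now SLC8B1, the mitochondrial sodium/calcium exchanger) was higher by 0.22 ± 0.07 (adjusted p = 0.0251), and by 0.16, not called, without the 3 least correlated arrays.

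SLC22A16, a carnitine transporter, had the largest rise, from a range of 0.14 to 2.89 (median 1.01) in LF to 0.63 to 2.91 (median 1.36) in HF pigs (0.53 ± 0.17, adjusted p = 0.0161). Without the 3 least correlated arrays it was 0.46 and did not pass. SLC22A4, an ergothioneine transporter, was lower by 0.17 on the log2 scale (adjusted p = 0.024). The other SLC22A4 probe had -0.02 and was not called. The nucleoside transporter SLC29A1 had 0.14 (adjusted p = 0.0147), under the fold of 1.1 by a small margin, and the folate carrier SLC19A1 0.09, not called. The protein SLC4A1AP, which has an SLC name but is no transporter, was lower by 0.17 on the log2 scale.

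Many SLC genes were on the array more than once, which allowed the brightest probe to be set against the others. Of the 37 genes changed by diet, 21 had 1 passing probe and 16 had several. In 15 of these 16 every passing probe had the same sign, SLC39A5 being the exception, and in 8 every passing probe passed the test. All 11 probes of SLC25A3 were called lower (-0.27 to -0.23), as were 7 of 8 of SLC16A1. All 3 probes of SLC27A3 were called higher, of which 2 hold the same sequence (0.41 and 0.40).

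**Figure D4:**
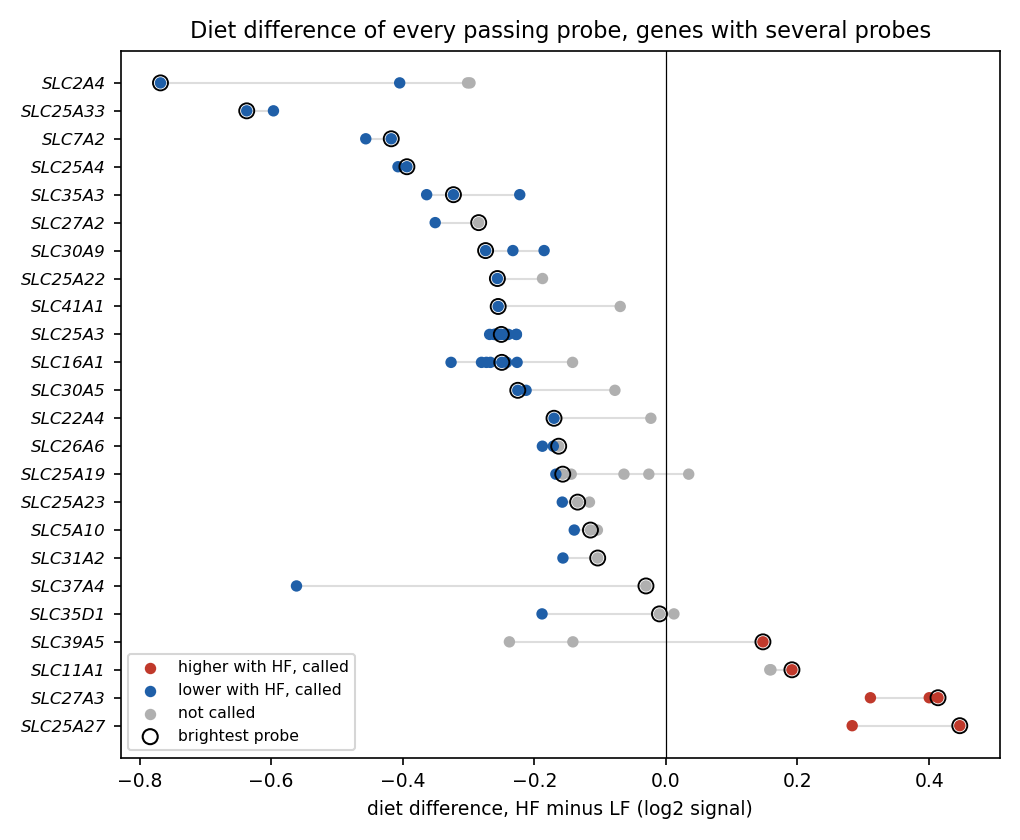
Diet difference (HF minus LF, log2 signal) of every passing probe of the SLC genes with several probes of which at least 1 passed the test; a ring marks the brightest probe, blue and red passed, grey did not. SLC25A3 has 11 probes in a tight cluster. In SLC37A4 only the dimmer probe was called, and in SLC39A5 the brightest probe has the opposite sign to the others.

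The plot of probes shows 8 further genes whose brightest probe was not called but another was. SLC37A4, the glucose-6-phosphate transporter of the endoplasmic reticulum, was the clearest. Its brightest probe had a difference of -0.03 ± 0.03, and its other probe -0.56 ± 0.10 (adjusted p = 3.71e-05). The dimmer probe was also lower in low RFI pigs (-0.31 ± 0.10, adjusted p = 0.0757). Which of these probes reads the transporter was not tested.

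The second question was whether the RFI lines differed. Line changed 6 of the 168 SLC genes (3.57%), against 3.37% of all probes: 4 were higher in low RFI pigs (1.70% of all probes) and 2 higher in high RFI pigs (1.67%). None of the 22 measured genes of a list of 30 transporters known in adipose tissue was among them, with line differences between -0.14 and 0.20. Of the 18 measured transporters and partners with other symbols, 2 were called, both higher in high RFI pigs: MTCH1 with a line difference of -0.16 (adjusted p = 0.0181) and the organic anion transporter SLCO2B1 with -0.31 (adjusted p = 0.0428). All 6 SLC genes kept their sign in both scan days.

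SLC48A1 (HRG1), which moves haem out of lysosomes, differed most. It ranged from 3.49 to 4.81 (median 4.17) in low RFI and from 3.04 to 4.47 (median 3.46) in high RFI pigs, and 23 of 24 low RFI pigs were above the high RFI mean. The difference was 0.55 ± 0.10 (low minus high RFI, adjusted p = 0.000507). On the HF diet the low RFI pigs lay between 3.76 and 4.81 and the high RFI pigs between 3.04 and 3.98, almost without overlap (difference 0.92 ± 0.14). On the LF diet the ranges were 3.49 to 4.72 and 3.12 to 4.47 (difference 0.18 ± 0.14). SLC48A1 was also called for diet (-0.28 ± 0.10, adjusted p = 0.0346). That value averaged 0.09 within the low RFI line and -0.65 within the high RFI line. The gene had a single probe.

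SLC41A2, a magnesium transporter, was higher in low RFI pigs (0.43 ± 0.11, adjusted p = 0.0182), from -0.19 to 1.38 (median 0.71) in high RFI to 0.51 to 1.94 (median 1.07) in low RFI pigs. SLC5A10, a sodium-coupled transporter of mannose and fructose, was higher by 0.22 ± 0.06 (adjusted p = 0.0154), and SLC35B2, which supplies the sulfate donor PAPS to the Golgi, by 0.18 ± 0.05 (adjusted p = 0.0278). In these genes 21 or 22 of the 24 low RFI pigs were above the high RFI mean. For SLC5A10, 2 of 3 probes were called, the third giving -0.04, and for SLC35B2 1 of 4, with all 4 between 0.12 and 0.18.

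SLC7A7 (y+LAT1), which exports arginine and lysine as a partner of SLC3A2, was lower in low RFI pigs. It ranged from 3.14 to 4.99 (median 3.78) in low RFI and from 3.24 to 5.17 (median 4.35) in high RFI pigs (-0.51 ± 0.14, adjusted p = 0.0317). All 4 of its probes were called, with differences from -0.51 to -0.43. The difference was uneven between scan days, at -0.18 and -0.84. One of the 4 probes was:
SLC7A7: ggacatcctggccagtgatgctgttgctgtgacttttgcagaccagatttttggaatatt
SLC25A27, which was higher with HF, was lower in low RFI pigs (-0.54 ± 0.16, adjusted p = 0.0489), in which it ranged from 1.37 to 4.06 against 2.37 to 4.45 in high RFI pigs. Its second probe was called for diet (0.28) but not for line (-0.19):
SLC25A27: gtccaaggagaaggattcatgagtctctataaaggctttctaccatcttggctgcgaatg

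**Figure D5:**
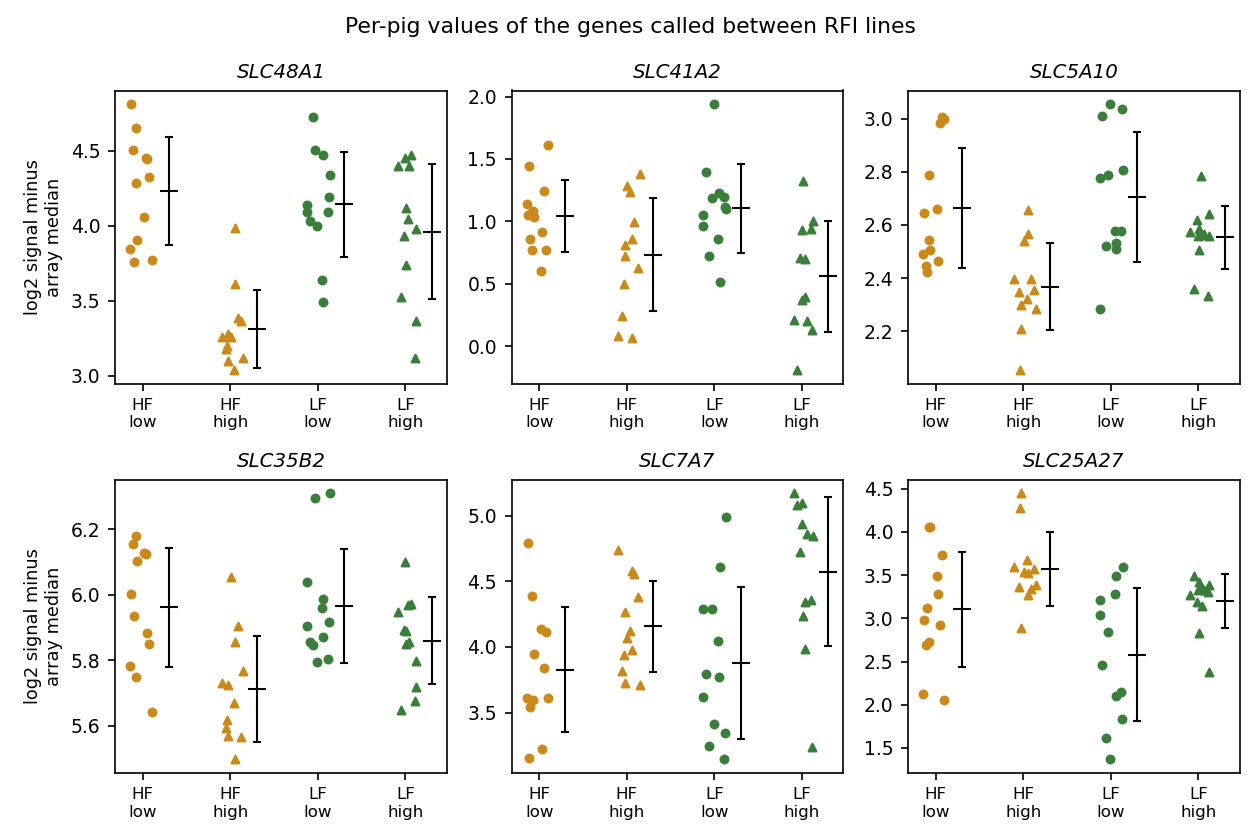
Level (log2 signal minus array median) in every pig of the 6 SLC genes called between RFI lines, by diet and line; points are pigs, and bars are the group mean ± SD of 12 pigs. SLC48A1 shows little overlap of the lines on the HF diet and broad overlap on the LF diet, and SLC7A7 and SLC25A27 are lower in low RFI pigs on both diets.

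The per-pig values of the line genes show that the line difference had the same sign on both diets for all 6. The third question was whether the diet response depended on the line. No SLC gene was called for the interaction, as was true of every probe tested (0%, limma), and the smallest adjusted p over all probes was 1 after rounding. At an unadjusted p under 0.05, 5 of the 168 SLC genes passed (2.98%, against 2.30% of all probes), and a 2-way ANOVA per probe called 0 as well. The 3 SLC genes with the lowest raw p were SLC48A1, the folate transporter SLC46A1 and SLC5A4, a member of the sodium/glucose cotransporter family.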

How the data were processed

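PRAT RNA was labelled with Cy3 and hybridized to custom porcine arrays of 60-base probes. Intensity values of each spot (median, mean, processed signal and background) and flags of 0 or 1 were deposited by the authors as scanner output, not normalized between arrays. The log2 table deposited by the authors, made in R 2.10.0 per the labels, holds 38142 probes. It has no usable row names and was matched to the spots by value (alternative only). The array's genome build is not given in the sources used here. Of 168 gene names, 167 matched a RefSeq symbol.

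Here log2 of the median signal, with no background subtraction, was centred on each array's median. Probes well above background on at least 24 arrays were fitted with limma 3.58.1 in R 4.3.3 (diet, line and interaction), with Benjamini-Hochberg adjustment over 43355 probes. SE and intervals are limma's. The pipeline was tested on simulated data. Replicates are pigs. Members, classes and lists were chosen with earlier results of these data known. Named genes are the adipose list, up to 2 rises and 2 falls per class, and the 3 lowest interaction p; others were chosen after their values were seen. Correlations used 100000 permutations, two-sided. Alternatives varied centring, background, filter, test, block, thresholds and samples.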

Additional observations from a re-analysis of the deposited data

Results flagged for a closer look

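The diet difference of 3 SLC genes differed between the RFI lines at an unadjusted p under 0.01 for the interaction (1.79% of the SLC genes, against 0.304% of all probes), and all 3 failed the adjustment over all probes (limma, adjusted p rounds to 1). For SLC48A1 the diet difference in low RFI pigs minus that in the high RFI line was 0.74 (SE 0.20, raw p = 0.000658), being 0.09 in the former and -0.65 in the latter. Its group medians were 4.30 in HF_RFIneg, 3.26 in HF_RFIpl, 4.12 in LF_RFIneg and 4.02 in LF_RFIpl, so that the HF_RFIpl pigs stood apart. For SLC46A1 the corresponding value was 0.49 (SE 0.18, raw p = 0.00858), with 0.19 in the low and -0.29 in the high RFI line. For SLC5A4 it was 0.36 (SE 0.13, raw p = 0.00874), with 0.17 and -0.19.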

How the results depend on the processing

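Of the 598 alternative values computed for named differences that passed the test, 596 kept their direction. The exceptions were SLC39A5 for diet with the mean of its probes (-0.077) and SLC48A1 for diet in low RFI pigs alone (0.092). The causes of the changes below were not tested, apart from stricter thresholds, which call fewer genes by construction. Smaller samples also have less power, though they need not call fewer genes. Against 30 SLC genes lower and 7 higher with HF, the number higher was 11 with 75th percentile centring, with quantile normalization and with normexp background correction plus quantile normalization. Spike-in centring gave 12 lower and 24 higher, and 2 genes higher in low RFI pigs instead of 4. Leaving out the 3 least correlated arrays, a choice made after seeing the data, gave 34 lower and 3 higher. With fold over 1.5, 4 genes were lower and 0 higher with HF, and 0 were higher in either line. In low RFI pigs alone 13 were lower and 2 higher, and in high RFI pigs alone 19 were lower and 5 higher. Between lines, HF pigs alone gave 1 gene higher in low RFI and 0 in high RFI, LF pigs alone gave 0 and 0, and the mean of the probes of a gene left 1 gene higher in high RFI. The interaction gave 0 calls in all 16 alternatives run for it.

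The SLC16A1 and BSG correlation passed p under 0.05 (permutation) with 75th percentile centring (r = 0.32), normexp and quantile (0.30), quantile normalization (0.32) and spike-in centring (0.38), but not with processed signals (0.25). Of the 4 genes lower with HF among transporters with other symbols, 1 was left with 75th percentile centring. Diet differences that did not pass and changed sign were small. They were SLC2A1 with array weights (-0.0035) and without the 3 arrays (-0.052). They were SLC27A1 (0.059), SLC16A3 (0.040) and SLC25A6 (0.011) with spike-in centring. SLC16A7 had -0.00675 with normexp and quantile, -0.016 in low RFI pigs, -0.026 without the 3 arrays and -0.012 with the mean of probes. SLC3A2 (-0.072) and SLC19A1 (-0.031) changed sign in high RFI pigs. SLC1A5 had 0.015 with 75th percentile centring, 0.056 with quantile normalization, 0.10 with spike-in centring, 0.015 with processed signals, 0.059 with normexp and quantile, 0.0098 in low RFI pigs and 0.0088 with the mean of probes.

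The labels do not say what a replicate number stands for, and all 4 arrays of a number shared a slide, so that a pairing was not established. Deviations of same-numbered pigs had a median correlation of 0.12 (38 of 72 over 0.1, minimum -0.29), against 0.062 for other numbers on the same slide (30 of 72 over 0.1) and -0.011 for all other numbers, and 16 of 48 arrays correlated best with an array of their own number. These values are a hint of pairing from the data, not the design. With the replicate block, 32 SLC genes were lower and 9 higher with HF, and the line counts were 4 and 2. Slide as a block gave 30 and 8, scan day as a block 30 and 7, the values of the deposited table gave 29 and 7 of 151 genes, and the 2-way ANOVA 28 and 7.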
